A study of Mus musculus with 12 samples.

Results

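The costimulatory and checkpoint receptors described here are 10 genes: Cd28, Icos, Ctla4, Pdcd1 and Btla of the CD28 family and its relatives, the TNF receptor family genes Cd27, Tnfrsf4, Tnfrsf9 and Tnfrsf18, and Cd40lg, a ligand of the TNF family. They were chosen by gene symbol, each was 1 of the 53656 gene rows of a library, and all 10 were among the 13383 genes that passed the filter on low counts. RNA was counted in thymocytes sorted from mice of 4 groups with 3 libraries each: dKO ImCD8, control ImCD8, dKO ImCD4 and control ImCD4. All mice, the controls included, were Zfp148 fl/fl and Zfp281 fl/fl, which means that both copies of these zinc finger genes carried loxP sites. The dKO mice also carried Cd4-Cre, a Cre recombinase under Cd4 control that acts in developing αβ T cells of both lineages from the double-positive stage on. The controls had no Cre, so an effect of Cre itself and the loss of the 2 genes cannot be told apart. ImCD8 cells were sorted as CD8+ CD4- cells with low CD44 that were positive for TCRb and CD69, and ImCD4 cells as CD4+ CD8- cells with low CD44 that were positive for CD69 and negative for H2-Kb. Age, sex and the number of mice behind the libraries are not stated in the labels, so p-values measure the spread between libraries, which may be partly technical.

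A T cell integrates its antigen receptor signal with signals from costimulatory receptors, which amplify it, and from checkpoint receptors, which restrain it. CD28 and ICOS recruit phosphoinositide 3-kinase, CTLA-4 competes with CD28 for the same ligands, and PD-1 and BTLA recruit phosphatases. The TNF receptor family members signal through TRAF adaptors to NF-κB. In the thymus several of these genes are switched on when a thymocyte receives a positive or strong selecting signal, and CD28 and the TNF receptors OX40 and GITR are known for their part in the development of regulatory T cells.

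The titles and the genotype labels of the 6 ImCD8 libraries disagree: titles that read control go with the genotype Cd4-Cre+, and titles that read dKO with Cd4-Cre negative. Groups follow the titles. Zfp148 averaged 54.9 ± 8.70 CPM in dKO ImCD8 and 165 ± 4.84 CPM in control ImCD8 (SD, n = 3 each; CPM are counts scaled to a common library size by TMM), and Zfp281 12.8 ± 2.36 and 119 ± 7.93 CPM in the same order, so the targeted genes went with the titles. In ImCD4 Zfp148 averaged 66.5 ± 3.13 CPM in dKO and 180.2 ± 3.01 CPM in control, and Zfp281 18.6 ± 2.62 and 486 ± 65.6 CPM. The coreceptor genes went with the gates, with Cd8a at 1626 CPM or more and Cd4 at 7.66 CPM or less on average in both ImCD8 groups, and Cd4 at 1115 CPM or more in both ImCD4 groups. In ImCD4 Cd8a averaged 63.7 ± 35.0 CPM in dKO and 53.4 ± 26.4 CPM in control. Zbtb7b, a CD4 lineage gene, averaged 165 ± 61.8 and 291 ± 84.5 CPM in the same order and did not pass. Runx3, at 59.7 ± 6.31 and 46.7 ± 6.44 CPM, was called higher in dKO ImCD4, and this call held in 14 of 21 alternatives. Cd44, whose protein was gated as low in both sorts, was higher in dKO (log2 fold change 1.45 ± 0.15 in ImCD8 and 1.44 ± 0.15 in ImCD4, adjusted p = 2.36e-05 and 1.74e-05). Gene counts per library were 7315833 to 10943143. In ImCD4 they did not overlap between dKO (9319732 to 10943143) and control (8276742 to 9173424), and neither did the share of reads outside genes (10.49% to 12.9% and 13.6% to 16.4% in the same order), the ambiguous share (5.55% to 5.67% and 5.37% to 5.46%), the mitochondrial share of gene counts (0.633% to 0.961% and 1.07% to 1.31%) or the TMM factor (1.005 to 1.026 and 1.028 to 1.036). Their part in the ImCD4 results was not tested. Replicate 3 of every group stood apart from the other libraries on the third principal component.

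Deleting Zfp148 and Zfp281 went with lower Icos in both populations, higher Ctla4 in ImCD4 and higher Cd40lg in ImCD8. In ImCD4, 2 of the 10 genes passed the threshold of an adjusted p under 0.05 (edgeR quasi-likelihood test, Benjamini-Hochberg over all tested genes), 1 higher and 1 lower, while 13.4% of all tested genes passed, 7.26% higher and 6.16% lower. In ImCD8 also 2 of 10 passed, 1 higher and 1 lower, against 6.14% of all genes, 2.62% higher and 3.53% lower. The shares are therefore near the background in ImCD4, and 2 genes are too few to set ImCD8 apart from it. The median log2 fold change of the 10 genes was -0.06 in ImCD4, where that of all tested genes was 0.02, and 0.13 in ImCD8, where that of all genes was 0.01. In ImCD4, 5 members had no overlap between dKO and control libraries, 3 above and 2 below, as had 33.8% of all genes, 18.1% above and 15.7% below. In ImCD8, 4 had none, 2 above and 2 below, as had 21.8% of all genes, 10.3% above and 11.5% below. In sorted bulk populations fewer cells with a transcript and less of it per cell cannot be told apart.

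**Figure D1:**
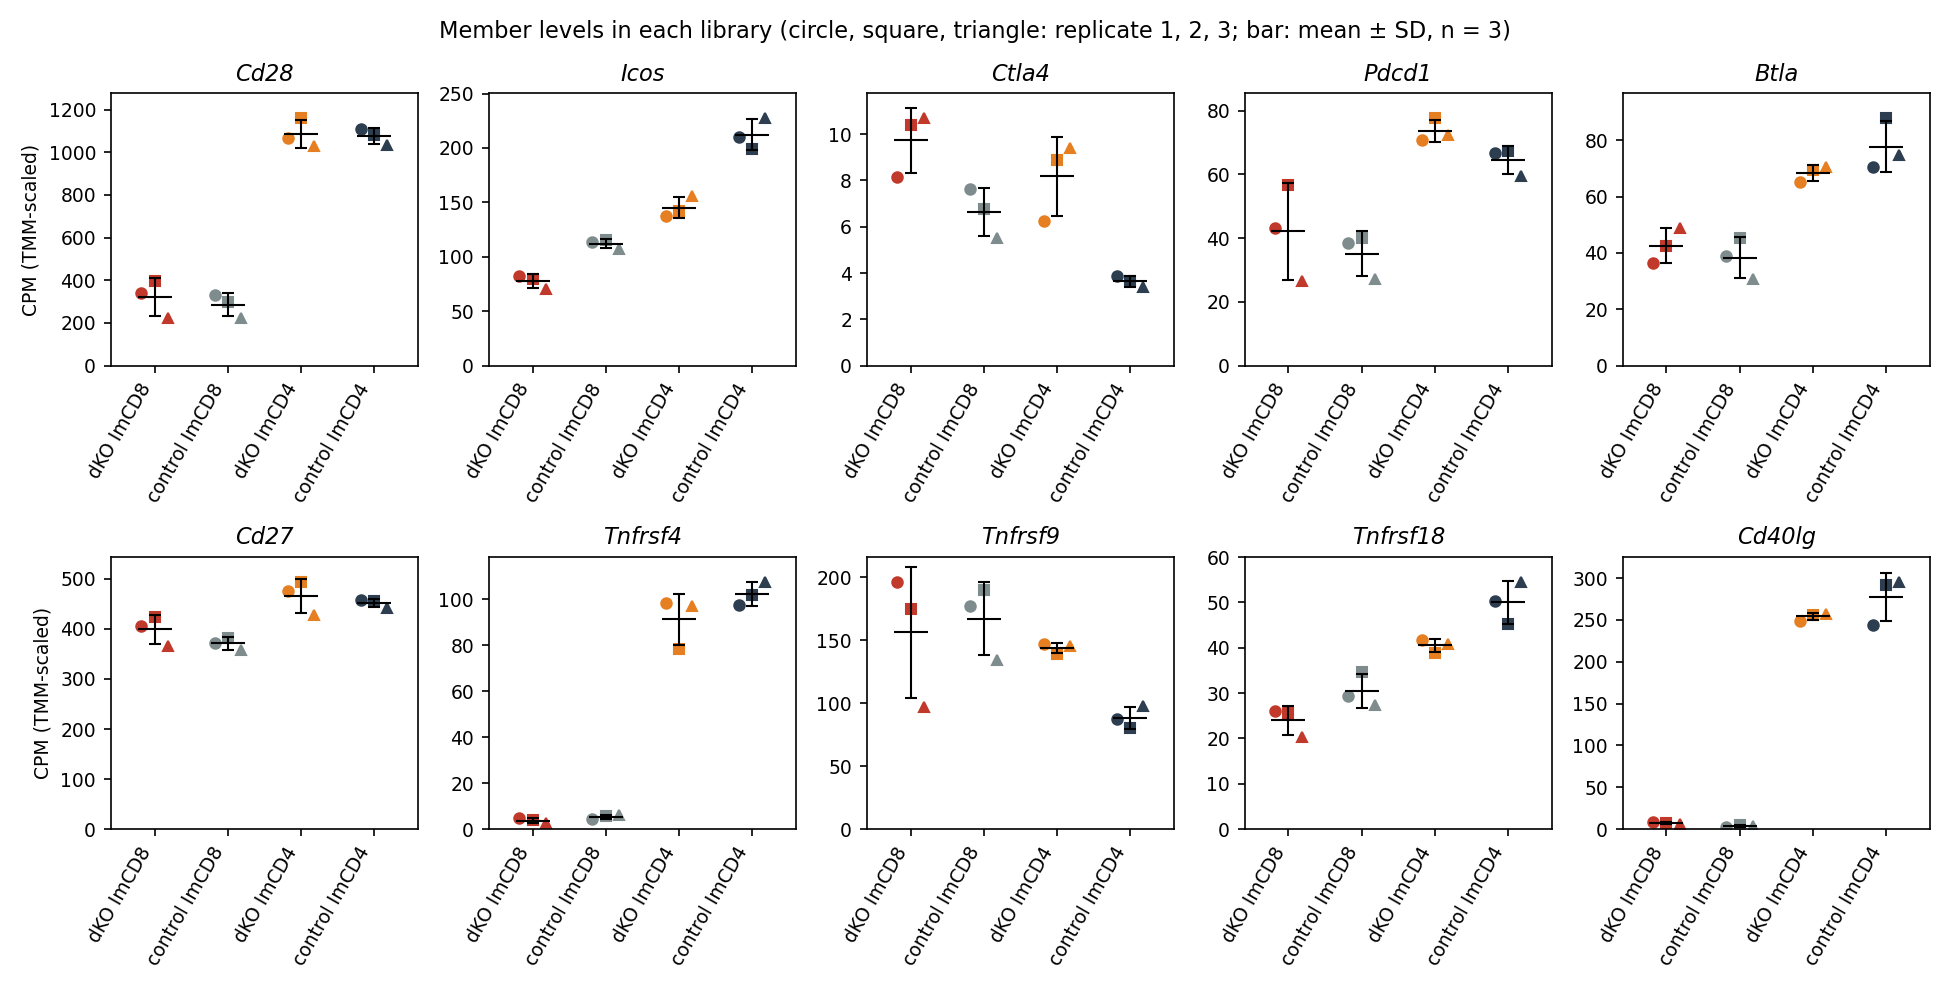
CPM of the 10 genes in each of the 12 libraries, one panel per gene with its own linear axis from 0, groups from left to right dKO ImCD8, control ImCD8, dKO ImCD4 and control ImCD4. Circles, squares and triangles are replicates 1, 2 and 3, and bars are the mean ± SD of 3 libraries. Icos and Tnfrsf18 differ among all 4 groups without overlap, lowest in dKO ImCD8, and Cd40lg and Tnfrsf4 are below 10 CPM in every ImCD8 library.

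Promoter windows from RefSeq (build GRCm38.p6, 250 bases before to 50 after an annotated start) were found for 7 of the 10 genes, 8 windows in all, with none for Cd28, Icos and Cd40lg. The window of Ctla4, the member called higher in ImCD4, and that of Pdcd1, the member with a motif match, are shown because ZFP148 and ZFP281 are known to bind G-rich DNA. The motif searched was GGGGAGGGG on either strand, that is also CCCCTCCCC. The windows lie at chr1:60908775-60909074 on the plus strand for Ctla4 and chr1:94052504-94052803 on the minus strand for Pdcd1, written 5′ to 3′ in the direction of the gene, with matches in capitals.
Ctla4: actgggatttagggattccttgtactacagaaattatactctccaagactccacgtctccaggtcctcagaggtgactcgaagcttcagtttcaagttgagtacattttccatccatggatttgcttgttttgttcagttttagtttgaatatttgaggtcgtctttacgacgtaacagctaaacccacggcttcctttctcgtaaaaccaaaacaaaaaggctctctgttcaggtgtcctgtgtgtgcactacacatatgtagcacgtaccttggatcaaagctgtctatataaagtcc
Pdcd1: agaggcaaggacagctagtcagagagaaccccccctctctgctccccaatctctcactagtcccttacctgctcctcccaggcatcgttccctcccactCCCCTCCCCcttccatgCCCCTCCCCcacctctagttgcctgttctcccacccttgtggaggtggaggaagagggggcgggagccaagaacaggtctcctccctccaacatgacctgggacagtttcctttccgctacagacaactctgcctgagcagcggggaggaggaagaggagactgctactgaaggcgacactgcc
The Pdcd1 window held 2 matches, beginning 151 and 134 bases before the start site, both reading CCCCTCCCC on the gene's strand. No other of the 8 windows held the motif, and 6.37% of all 32851 promoter windows of the same length did. Pdcd1 itself did not pass the test in either population. A match is a string of letters and not a measured binding site.

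Icos encodes the inducible costimulator, which signals through phosphoinositide 3-kinase (ENSMUSG00000026009.14, build GRCm38, chr1:60977927-61000320, plus strand). It was at 82.7, 79.3 and 70.4 CPM in the dKO ImCD8 libraries and at 113, 115 and 107 CPM in control ImCD8. In ImCD4 it was at 138, 142 and 156 CPM in dKO and at 210.4, 199 and 227 CPM in control. Every dKO library was below every control library of its population. Icos fell to 0.683 of the control level in ImCD4 (log2 fold change -0.55 ± 0.08, SE, adjusted p = 0.000192) and to 0.692 in ImCD8 (-0.53 ± 0.08, adjusted p = 0.000578). The difference between the effects was 0.02 ± 0.11 on the log2 scale with a 95% interval of -0.22 to 0.26, adjusted p = 0.978. Both calls held in all 21 alternative settings of each comparison. Ordered by level, control ImCD4 was followed by dKO ImCD4, control ImCD8 and dKO ImCD8, and no neighbours in that order overlapped.

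Cd28, the founding costimulatory receptor for CD80 and CD86 (ENSMUSG00000026012.2, chr1:60716800-60773359, plus strand), showed no such step. It was at 343, 398 and 225 CPM in dKO ImCD8 and at 332, 300.0 and 225 CPM in control ImCD8. In ImCD4 the dKO libraries had 1069, 1159.8 and 1031 CPM and the control libraries 1111, 1081 and 1037 CPM. The groups overlapped in both populations, and replicate 3 was the lowest in every group. The log2 fold change was 0.01 ± 0.18 in ImCD4 (95% interval -0.38 to 0.41, adjusted p = 0.973) and 0.17 ± 0.18 in ImCD8 (-0.23 to 0.57, adjusted p = 0.700).

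Ctla4, the inhibitory receptor that competes with CD28 for its ligands (ENSMUSG00000026011.13, chr1:60887000-60915832, plus strand), had few reads throughout. Its counts in ImCD4 were 70, 93 and 88 in the dKO libraries and 33, 33 and 32 in the control libraries, which corresponds to 6.24, 8.90 and 9.41 CPM in dKO and 3.89, 3.65 and 3.39 CPM in control. In ImCD8 it was at 8.13, 10.4 and 10.7 CPM in dKO and at 7.62, 6.76 and 5.53 CPM in control. In both populations all dKO libraries were above all controls. The rise passed the test in ImCD4, 2.24-fold with a log2 fold change of 1.16 ± 0.21 (adjusted p = 0.00178), and did so in all 21 alternatives. In ImCD8 the log2 fold change was 0.56 ± 0.20 (95% interval 0.14 to 0.98) and did not pass (adjusted p = 0.116). The difference between the effects, ImCD8 minus ImCD4, was -0.60 ± 0.29 (-1.22 to 0.01, adjusted p = 0.510), so the data do not show that the populations differed.

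Pdcd1 encodes PD-1, an inhibitory receptor that recruits the phosphatase SHP-2 (ENSMUSG00000026285.7, chr1:94038305-94052553, minus strand). It was at 43.1, 56.8 and 26.5 CPM in dKO ImCD8, 38.3, 40.0 and 27.2 CPM in control ImCD8, 70.8, 77.6 and 72.3 CPM in dKO ImCD4, and 66.7, 67.4 and 59.6 CPM in control ImCD4. The ImCD4 libraries did not overlap, yet the log2 fold change of 0.19 ± 0.21 did not pass (95% interval -0.27 to 0.65, adjusted p = 0.609), and in ImCD8 it was 0.27 ± 0.23 (adjusted p = 0.593).

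Btla, an inhibitory receptor whose partner is the TNF receptor HVEM (ENSMUSG00000052013.15, chr16:45224315-45257670, plus strand), was at 36.5, 42.4 and 48.9 CPM in dKO ImCD8 and at 38.8, 45.4 and 30.9 CPM in control ImCD8. It was at 65.2, 69.5 and 70.6 CPM in dKO ImCD4 and at 70.4, 87.8 and 74.8 CPM in control ImCD4. Groups overlapped in both populations, with log2 fold changes of -0.18 ± 0.13 in ImCD4 (adjusted p = 0.371) and 0.16 ± 0.13 in ImCD8 (adjusted p = 0.597).

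Of the TNF receptor family, Cd27, a costimulatory receptor for CD70 (ENSMUSG00000030336.14, chr6:125232622-125237010, minus strand), varied least. It was at 405, 424 and 367 CPM in dKO ImCD8, 372, 383 and 358 CPM in control ImCD8, 475, 494 and 428 CPM in dKO ImCD4, and 458, 455 and 442 CPM in control ImCD4. Its log2 fold changes were 0.04 ± 0.07 in ImCD4 (95% interval -0.11 to 0.20, adjusted p = 0.737) and 0.10 ± 0.07 in ImCD8 (-0.05 to 0.26, adjusted p = 0.492).

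Tnfrsf9 encodes 4-1BB, an activation-induced costimulatory receptor (ENSMUSG00000028965.13, chr4:150914562-150946102, plus strand). It was at 147, 139 and 145 CPM in dKO ImCD4 and at 87.8, 80.2 and 97.8 CPM in control ImCD4, groups that did not overlap. It was at 197, 175 and 97.2 CPM in dKO ImCD8 and at 177, 190.2 and 135 CPM in control ImCD8, where replicate 3 was the lowest in each group. The log2 fold change in ImCD4, 0.70 ± 0.22 (95% interval 0.20 to 1.20), did not pass in the fit over all 12 libraries (adjusted p = 0.0693). It passed in 6 of 21 alternatives, among them the fit of the 6 ImCD4 libraries alone (0.69 ± 0.08, adjusted p = 0.000150) and the fits without dKO ImCD8 replicate 1 (adjusted p = 0.0460) or replicate 3 (adjusted p = 0.000604), which share the estimate of spread. In ImCD8 the log2 fold change was -0.10 ± 0.22 (adjusted p = 0.880). The difference between the effects was -0.80 ± 0.32 (95% interval -1.5 to -0.09, adjusted p = 0.440), and without replicate 3 of every group -0.75 ± 0.12 (adjusted p = 0.00485). With all 12 libraries and a term for the replicates that stood apart it was -0.80 ± 0.31 (adjusted p = 0.304).

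Tnfrsf18 and Tnfrsf4 are neighbours on chromosome 4, 9.6 kb apart. Tnfrsf18 encodes GITR, which is abundant on regulatory T cells and their precursors (ENSMUSG00000041954.18, chr4:156026164-156028895, plus strand). It was at 26.2, 25.6 and 20.4 CPM in dKO ImCD8 and 29.5, 34.6 and 27.3 CPM in control ImCD8. In ImCD4 it was at 41.8, 38.9 and 40.8 CPM in dKO and 50.4, 45.2 and 54.6 CPM in control. The dKO libraries lay below the controls in both populations, and the order of the 4 groups was that of Icos, without overlap between neighbours. Neither log2 fold change passed: -0.31 ± 0.11 in ImCD4 (95% interval -0.54 to -0.07, adjusted p = 0.0826) and -0.34 ± 0.12 in ImCD8 (-0.59 to -0.08, adjusted p = 0.117). In ImCD4 it passed in 3 of 21 alternatives, the fit of the 6 ImCD4 libraries alone (adjusted p = 0.0374), limma-voom (0.0447) and the fit with a term for the replicates that stood apart (0.0380). An antisense gene, Gm16008, covers 27.2% of the Tnfrsf18 exon bases in GENCODE M21, and no source used here says whether counting used the strand, so the reads of the pair cannot be told apart.

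Tnfrsf4 encodes OX40, a costimulatory receptor of activated CD4 T cells (ENSMUSG00000029075.6, chr4:156013843-156016612, plus strand). It was at 4.70, 3.77 and 2.62 CPM in dKO ImCD8 and 4.37, 5.63 and 6.06 CPM in control ImCD8. In ImCD4 it was at 98.6, 78.6 and 97.0 CPM in dKO and 97.4, 102.1 and 107.7 CPM in control. The groups overlapped in both populations, with log2 fold changes of -0.16 ± 0.11 in ImCD4 (adjusted p = 0.361) and -0.54 ± 0.21 in ImCD8 (adjusted p = 0.161).

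Cd40lg encodes the ligand by which helper T cells engage CD40 on B cells and other antigen-presenting cells (ENSMUSG00000031132.1, chrX:57212143-57224042, plus strand). In ImCD8 its counts were 67, 86 and 53 in the dKO libraries and 28, 36 and 30 in the control libraries, or 8.51, 7.91 and 6.03 CPM in dKO and 3.14, 5.07 and 3.19 CPM in control. In ImCD4 it was at 249, 256 and 258 CPM in dKO and 244, 291 and 296 CPM in control. The dKO ImCD8 libraries were all above the control ImCD8 libraries, while the ImCD4 groups overlapped. Cd40lg rose 2.01-fold in ImCD8 (log2 fold change 1.01 ± 0.19, adjusted p = 0.00421) and had a log2 fold change of -0.12 ± 0.10 in ImCD4 (95% interval -0.33 to 0.08, adjusted p = 0.440). The ImCD8 call was lost with the 6 ImCD8 libraries fitted alone (0.99 ± 0.25, adjusted p = 0.0555).

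The level that Cd40lg reached in dKO ImCD8, 7.48 ± 1.30 CPM, compares with 254 ± 4.64 CPM in dKO ImCD4. In ImCD8 the coreceptor gene Cd4 was at 7.66 ± 3.78 CPM in dKO and 3.06 ± 1.66 CPM in control and did not pass (log2 fold change 1.32 ± 0.41, adjusted p = 0.0953). Zbtb7b, the gene for ThPOK, the master factor of the CD4 lineage, had 3 counts over the dKO and 2 over the control libraries, and was too low to test. Tnfrsf4 did not pass either, as given above. Among summed markers of other cells in ImCD8, the double-positive thymocyte list (6 genes, Dntt and Cd1d1 the most abundant, all with counts) was at 162 to 194 CPM in dKO and 107 to 133 CPM in control, and the thymic epithelial list (6 genes, mostly Epcam) at 16.4 to 24.0 and 9.97 to 11.1 CPM in the same order. The difference of the double-positive sum was mostly that of Dntt, the terminal transferase gene, at 106 ± 14.3 CPM in dKO and 44.1 ± 8.87 CPM in control (1.26 ± 0.15, adjusted p = 0.000204). It was the only 1 of the 5 tested genes of that list to pass, and the median log2 fold change of the 5 was -0.01. Cd1d1 was at 61.4 ± 4.88 CPM in dKO and 67.4 ± 1.35 CPM in control (adjusted p = 0.421), and Rag1 at 3.59 ± 2.82 and 3.64 ± 2.07 CPM in the same order. Epcam passed (0.85 ± 0.21, adjusted p = 0.0196) in this comparison and in 17 of its 21 alternatives, and was lost without dKO ImCD8 replicate 1 or control ImCD8 replicate 1 or 3 and with the 6 ImCD8 libraries fitted alone (adjusted p up to 0.0977). The B cell list (8 genes, mostly Ighm) summed to 365 to 497 CPM in dKO and 310 to 403 CPM in control, the NK and innate-like list (mostly Il2rb) to 423 to 480.4 and 462 to 537 CPM, the gamma-delta list to 21.6 to 29.1 and 18.7 to 19.9 CPM, and the myeloid and dendritic list to 119.96 to 171 and 116 to 138 CPM in the same order. Within the B cell list Cd79b, a signalling chain of the B cell receptor, was at 25.3 ± 7.59 CPM in dKO and 10.1 ± 1.79 CPM in control and rose (1.32 ± 0.24, adjusted p = 0.00370), 1 of 3 genes of that list that were tested, and this call held in all 21 alternatives. Their part in the Cd40lg result was not tested.

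**Figure D2:**
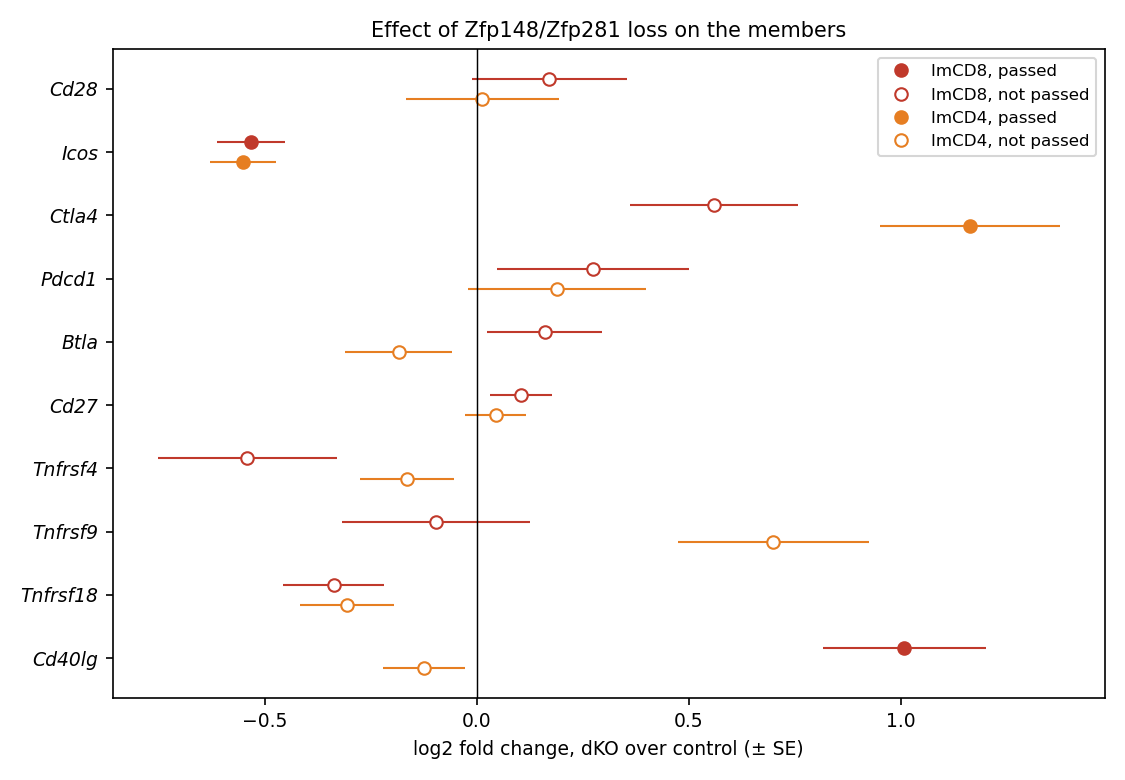
Log2 fold change, dKO over control, of the 10 genes in ImCD8 and in ImCD4 with bars of 1 SE from the edgeR fit on either side. Filled points passed the threshold: Icos in both populations, Ctla4 in ImCD4 and Cd40lg in ImCD8.

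Whether the effect of the deletion differed between the populations was tested directly. 1 of the 10 genes passed, Cd40lg, with a difference (ImCD8 effect minus ImCD4 effect) of 1.13 ± 0.22 on the log2 scale (95% interval 0.67 to 1.59, adjusted p = 0.0265), where 0.433% of all tested genes passed. This call was lost in 8 of the 12 fits that left out 1 library: replicate 1 or 2 of dKO ImCD8 (adjusted p = 0.0775 and 0.104), 1 or 3 of control ImCD8 (0.120 and 0.119), 1 or 2 of dKO ImCD4 (0.0636 and 0.0639) and 2 or 3 of control ImCD4 (0.0633 and 0.0556). The difference was 1.01 to 1.36 over these 12 fits. For the other 9 genes, intervals of the difference all included 0 except that of Tnfrsf9.

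The neighbouring genes on chromosome 1 did not move as a block. Cd28, Ctla4 and Icos lie in this order on the plus strand. Between the GENCODE M21 gene ends the gaps are 113.6 kb from Cd28 to Ctla4 and 62.1 kb from Ctla4 to Icos. The RefSeq start site of the Ctla4 window shown above, at 60909025, lies inside the GENCODE span of Ctla4. From that start the gap to Cd28 would be larger. In ImCD4 their log2 fold changes were 0.01, 1.16 and -0.55.

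Between ImCD8 and ImCD4 more members passed than between genotypes, as did more of all genes. The populations were sorted by unlike gates, with H2-Kb used for ImCD4 and TCRb for ImCD8. Differences of lineage and of gate therefore cannot be told apart here. In control mice all 10 passed, 8 lower and 2 higher in ImCD8, where 45.3% of all tested genes passed (22.1% lower, 23.1% higher), and no member's libraries overlapped. Of all genes 56.4% had no overlap, 28.8% above and 27.6% below in ImCD8. Cd40lg was at 3.80 ± 1.1 CPM in ImCD8 and 277 ± 28.5 CPM in ImCD4 (log2 fold change -6.22 ± 0.15, adjusted p = 6.40e-14), and Tnfrsf4 at 5.35 ± 0.879 and 102 ± 5.15 CPM in the same order (-4.26 ± 0.15, adjusted p = 4.93e-12). Cd28 was 1.91 ± 0.19 lower on the log2 scale in ImCD8, Btla 1.03 ± 0.13, Icos 0.92 ± 0.08, Pdcd1 0.88 ± 0.22, Tnfrsf18 0.72 ± 0.11 and Cd27 0.28 ± 0.07. The 2 genes higher in control ImCD8 were Ctla4, 1.82-fold (0.86 ± 0.22, adjusted p = 0.00426), and Tnfrsf9, 1.88-fold (0.91 ± 0.23, adjusted p = 0.00738). The median log2 difference of the 10 genes was -0.90, and that of all tested genes -0.01.

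In dKO mice 8 of the 10 genes passed, all lower in ImCD8, where 43.7% of all genes passed, 22.1% higher and 21.6% lower. The same 8 had no overlap between libraries, all below, as had 51.8% of all genes, 25.6% above and 26.2% below. Ctla4 and Tnfrsf9 did not pass: their log2 differences were 0.26 ± 0.19 (95% interval -0.14 to 0.66, adjusted p = 0.296) and 0.12 ± 0.22 (-0.37 to 0.61, adjusted p = 0.708), and their libraries overlapped between lineages. Ctla4 averaged 9.74 ± 1.40 CPM in dKO ImCD8 and 8.19 ± 1.70 CPM in dKO ImCD4, and Tnfrsf9 156 ± 52.3 and 144 ± 4.0 CPM in the same order. The comparison in dKO and that in controls use different libraries, and their difference is the interaction given above, in which neither gene passed. Tnfrsf9 was called 0.37 ± 0.12 higher in dKO ImCD8 without dKO ImCD8 replicate 3 (adjusted p = 0.0253). The smallest called difference was that of Cd27, -0.22 ± 0.07 (adjusted p = 0.0199). It was lost with the 6 dKO libraries fitted alone (adjusted p = 0.0662) and without dKO ImCD4 replicate 1 (0.0593), dKO ImCD4 replicate 2 (0.0929) or dKO ImCD8 replicate 3 (0.0951).

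**Figure D3:**
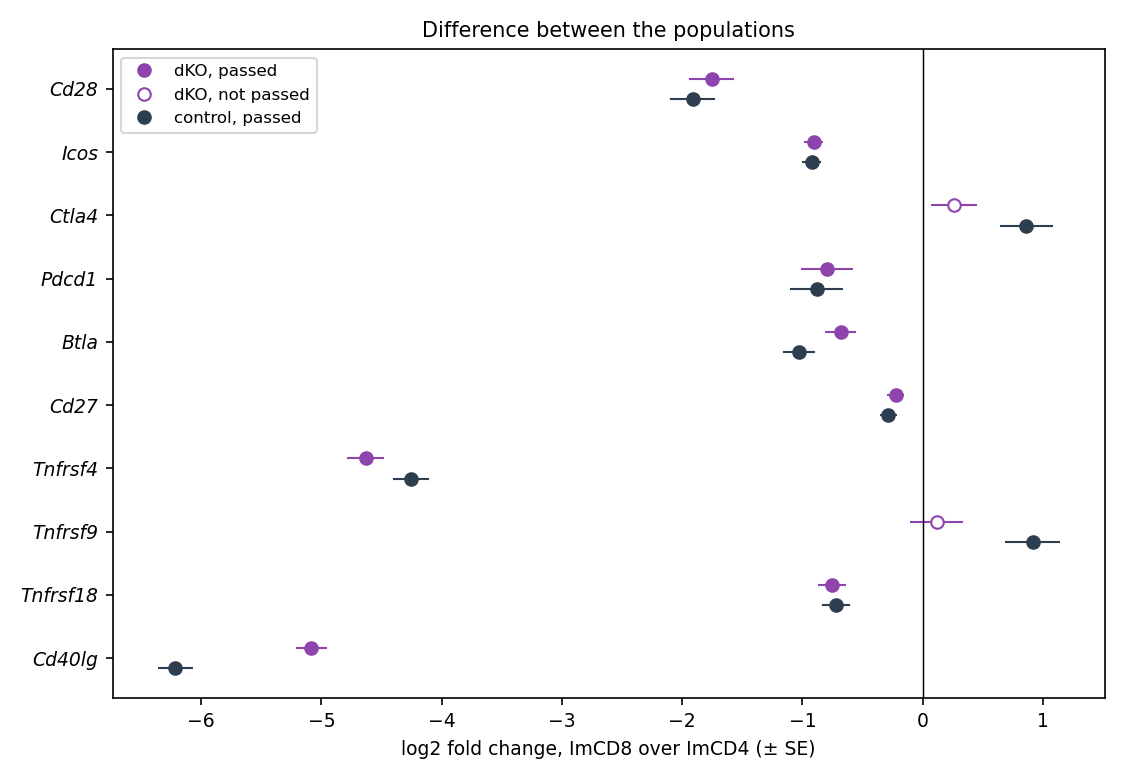
Log2 difference, ImCD8 over ImCD4, of the 10 genes in dKO and in control mice with bars of 1 SE on either side, filled where the test was passed. Cd40lg (-5.08 in dKO and -6.22 in control) and Tnfrsf4 (-4.63 and -4.26) lie farthest below 0, and Ctla4 and Tnfrsf9 are the open points, in dKO mice.

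Levels can be ranked between genes only per length, here as CPM per kb of exon. In dKO ImCD8 Cd27 led with 171 ± 12.6, followed by Tnfrsf9 with 57.4 ± 19.2 and Cd28 with 52.5 ± 14.4, and Tnfrsf4 was last with 2.71 ± 0.765. In control ImCD8 Cd27 led with 159 ± 5.33 CPM per kb and Ctla4 was last with 2.85 ± 0.451. In dKO ImCD4 Cd40lg had 203 ± 3.72, Cd27 200.1 ± 14.5 and Cd28 177 ± 10.8 CPM per kb. The same 3 genes led in control ImCD4, with 222 ± 22.8 for Cd40lg, 194 ± 3.66 for Cd27 and 176 ± 6.11 for Cd28, and Ctla4 was last in both ImCD4 groups with 3.51 ± 0.729 in dKO and 1.56 ± 0.106 in control. Cd27 thus stood in the first or the second place in all 4 groups.

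**Figure D4:**
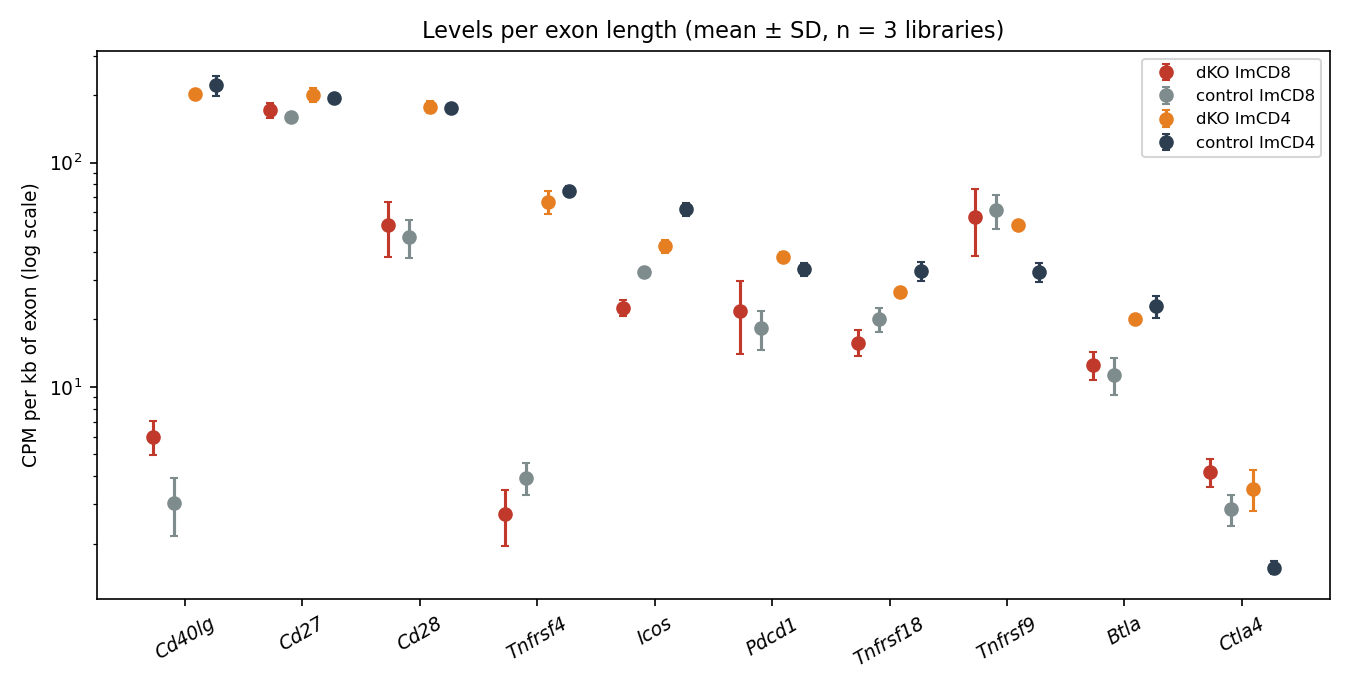
CPM per kb of exon on a log axis for the 10 genes in the 4 groups, as mean ± SD of 3 libraries. Cd40lg is first in both ImCD4 groups and among the last 3 in both ImCD8 groups.

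For each member called in a dKO comparison, the 3 genes with the most similar pattern were found by the root mean square difference of log2 CPM, each gene centred on its mean, over the 12 libraries and 9713 candidate genes. Icos was most like Bzw2 (0.106), Msrb2 (0.138) and Gdf11 (0.139). Ctla4 was most like Dusp2 (0.208), Ctsd (0.248) and Ppp1r14b (0.265). Cd40lg, whose pattern is mostly the difference between ImCD8 and ImCD4, was most like Ptgir (0.256), Chl1 (0.473) and St3gal2 (0.531).

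Among 18 other inhibitory and costimulatory T cell receptors, 16 were tested, and 3 were higher and 4 lower in dKO ImCD4, where 13.4% of all tested genes passed. Cd160, an inhibitory receptor that shares the partner HVEM with BTLA, was at 15.2 ± 0.965 CPM in dKO and 4.71 ± 0.725 CPM in control (log2 fold change 1.69 ± 0.13, adjusted p = 3.50e-07). Cd7 was at 22.9 ± 0.812 and 14.2 ± 1.98 CPM in the same order (0.69 ± 0.10, adjusted p = 0.000213). Vsir, which encodes the checkpoint receptor VISTA, was lower, at 56.3 ± 11.5 CPM in dKO and 106 ± 9.58 CPM in control (-0.91 ± 0.12, adjusted p = 0.000114), as was Cd6 at 485 ± 21.5 and 729 ± 34.9 CPM (-0.59 ± 0.12, adjusted p = 0.00358). In dKO ImCD8, where 6.14% of all genes passed, 1 of the 16 was lower, Slamf1 at 39.7 ± 6.68 CPM in dKO and 52.6 ± 4.34 CPM in control (-0.41 ± 0.11, adjusted p = 0.0469), a call that held in 8 of 21 alternatives (adjusted p up to 0.170, without control ImCD8 replicate 1). The effects on Cd160 and Cd7 differed between populations (-1.39 ± 0.16, adjusted p = 0.000667, and -0.71 ± 0.12, adjusted p = 0.0134).

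Ligands and partners of the receptors differed widely in level in these T cells. Cd274, which encodes the PD-1 ligand PD-L1, averaged 40.0 CPM in control ImCD8 to 85.3 CPM in dKO ImCD4. Tnfrsf14, the gene for HVEM, averaged 57.0 CPM in dKO ImCD4 to 106 CPM in control ImCD8. Ltb averaged 278 CPM in dKO ImCD4 to 981 CPM in control ImCD8. Of 18 genes, 13 were tested, and Cd80, Cd70, Cd40, Tnfsf4 and Tnfsf18, which encode ligands or partners of CD28 and CTLA-4, CD27, CD40L, OX40 and GITR, had too few counts. In ImCD4 Lta was higher in dKO, at 36.1 ± 2.54 CPM against 25.3 ± 3.19 CPM in control (0.51 ± 0.11, adjusted p = 0.00426). Cd86, the other CD28 ligand, was lower, at 0.444 ± 0.262 CPM in dKO and 3.37 ± 0.545 CPM in control, that is 14 counts over 3 libraries against 91 (-2.87 ± 0.34, adjusted p = 4.26e-05). In ImCD8 0 of the 13 passed in edgeR, with 2 at an unadjusted p under 0.05, and DESeq2 called 1 and limma-voom 0.

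For the downstream and related genes the counts stand beside the same shares of all tested genes, 13.4% in ImCD4 and 6.14% in ImCD8. Of 13 tested genes among 22 other TNF receptors, Tnfrsf1b, which encodes TNF receptor type II, was higher in dKO ImCD4 at 155 ± 18.4 CPM against 88.7 ± 8.0 CPM in control (0.80 ± 0.15, adjusted p = 0.00333), and 0 passed in ImCD8 in edgeR, DESeq2 or limma-voom, with 0 at an unadjusted p under 0.05 in edgeR. Of 20 TRAF adaptor and NF-κB genes, all tested, 2 were higher and 2 lower in dKO ImCD4 and 2 were lower in dKO ImCD8. Traf4 was lower in both, at 170 ± 8.80 CPM in dKO and 253 ± 9.88 CPM in control ImCD4 (-0.57 ± 0.07, adjusted p = 5.73e-05) and at 126 ± 6.34 and 188 ± 11.4 CPM in dKO and control ImCD8 (-0.58 ± 0.07, adjusted p = 8.70e-05). Cyld, which encodes a deubiquitinase that restrains NF-κB, was lower in dKO ImCD4 (-0.30 ± 0.07, adjusted p = 0.00828) and in dKO ImCD8 (-0.33 ± 0.07, adjusted p = 0.00772). Traf5 (0.81 ± 0.24, adjusted p = 0.0341) and Relb (0.39 ± 0.10, adjusted p = 0.0213) were higher in dKO ImCD4. The Traf5 call was lost without any 1 of the 6 ImCD4 libraries (adjusted p up to 0.124), that of Relb without replicate 1 or 2 of dKO ImCD4 or replicate 1 or 3 of control ImCD4 (up to 0.0843), and that of Cyld in ImCD4 without control ImCD4 replicate 2 (0.0502) and without replicate 3 of every group (0.0567).

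Of 22 genes listed for proximal CD28 and PD-1 signalling, all tested, 1 was higher and 2 lower in dKO ImCD4, and 1 was lower in dKO ImCD8. The list includes Pdk1, which in mouse encodes pyruvate dehydrogenase kinase 1, a metabolic enzyme and not a kinase of this signalling. The counts and medians given for the list include it. Pdk1 did not pass in either population. It was at 193 ± 44.2 CPM in dKO and 215 ± 45.1 CPM in control ImCD4. In ImCD8 it was at 360 ± 42.7 and 320 ± 28.3 CPM in the same order. Grap2, an adaptor that links CD28 to SLP-76, was at 74.2 ± 11.7 CPM in dKO and 113 ± 18 CPM in control (-0.61 ± 0.12, adjusted p = 0.00416). The kinase gene Akt1 was higher in dKO ImCD4 (0.29 ± 0.07, adjusted p = 0.0132). This call was lost without dKO ImCD4 replicate 2 (0.0777) or control ImCD4 replicate 3 (0.0550).

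Because Ctla4, Tnfrsf9 and Tnfrsf18 are abundant in regulatory T cells, 12 markers of these cells and of agonist selection were counted beside them. In dKO ImCD4 4 were higher and 1 lower, where 13.4% of all tested genes passed, and in dKO ImCD8 1 was higher, where 6.14% did. Izumo1r was at 279 ± 63.3 CPM in dKO and 152 ± 8.37 CPM in control (0.87 ± 0.14, adjusted p = 0.00150), and Nrp1 at 23.0 ± 2.70 and 14.3 ± 2.26 CPM (0.68 ± 0.15, adjusted p = 0.00634). Lrrc32 was at 4.04 ± 0.442 CPM in dKO and 1.60 ± 0.0511 CPM in control (1.34 ± 0.30, adjusted p = 0.00733), and Gpr83 at 207 ± 81.3 and 114 ± 12.9 CPM (0.86 ± 0.22, adjusted p = 0.0305). The Gpr83 call held in 15 of 21 alternatives and was lost without any 1 of the 3 control ImCD4 libraries, without dKO ImCD8 replicate 3, without a filter and with the 6 ImCD4 libraries fitted alone (adjusted p up to 0.142). Capg was lower at 22.4 ± 1.20 CPM in dKO and 40.6 ± 6.59 CPM in control (-0.86 ± 0.13, adjusted p = 0.000306). The defining gene Foxp3 was near 0 in ImCD4, with 14 counts over the dKO and 6 over the control libraries. It was 1 of 7 markers that did not pass there. The rest of those 7 had lower means in dKO than in control ImCD4. Il2ra was at 9.34 and 10.5 CPM in dKO and control, Ikzf2 at 42.0 and 45.7, and Ikzf4 at 13.5 and 15.2. Nr4a1 was at 455 and 497 CPM in the same order, Nr4a3 at 28.6 and 41.1, and Bcl2l11 at 216 and 282. The median log2 fold change of the 12 was -0.12. The 12 markers summed to 1233 to 1410 CPM in dKO and 1193 to 1258 CPM in control, mostly Nr4a1 and Bcl2l11. In dKO ImCD8 Nrp1 was higher (1.24 ± 0.21, adjusted p = 0.00168) and no other marker passed.

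**Figure D5:**
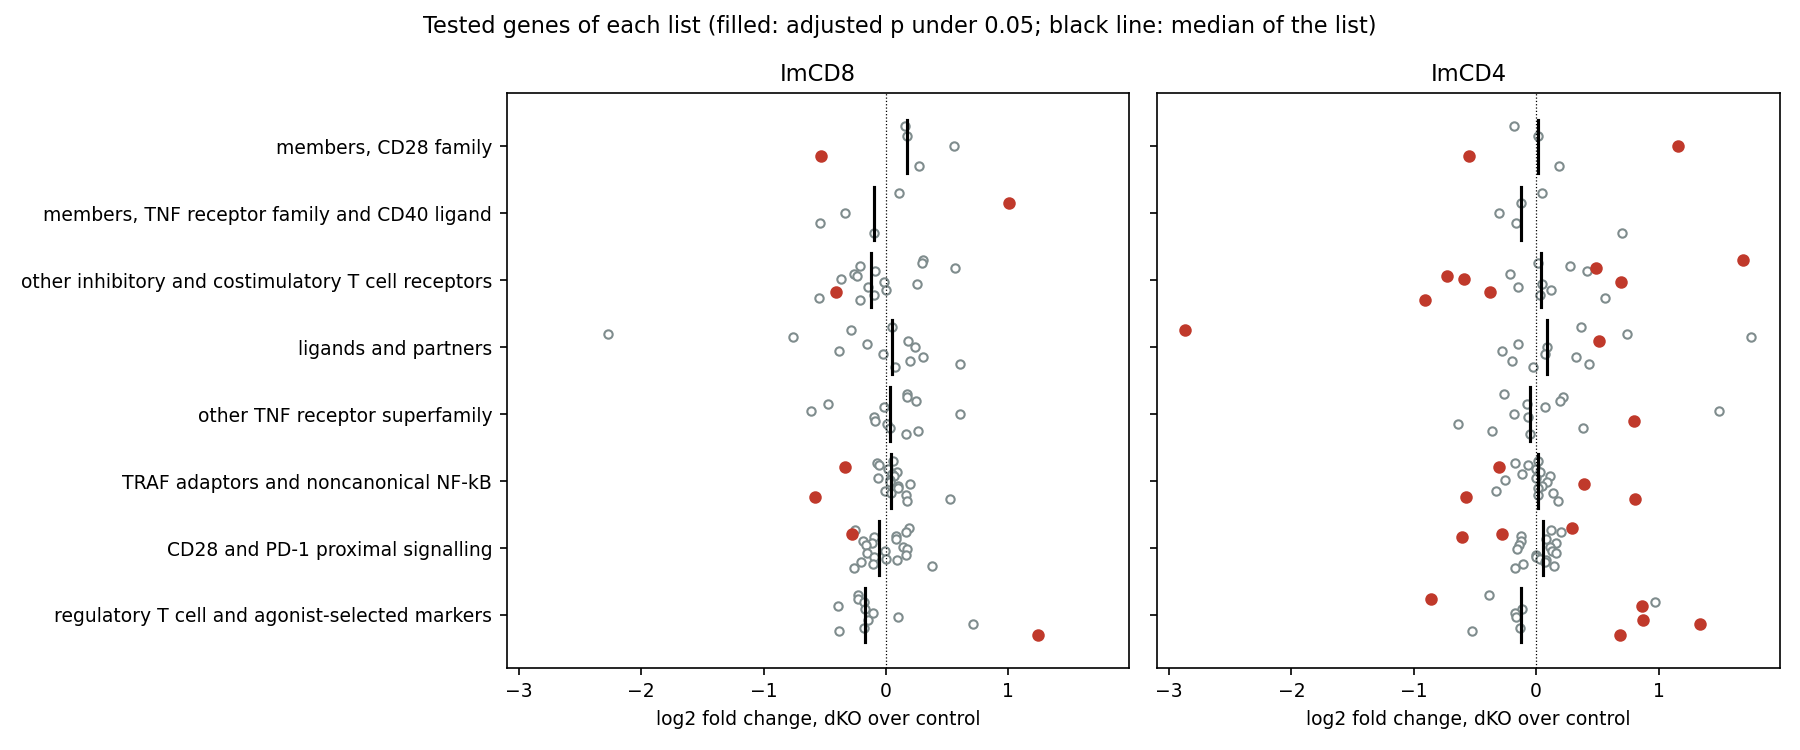
Log2 fold change, dKO over control, of the tested genes of each list in ImCD8 and ImCD4, filled where the adjusted p is under 0.05, with a line at the median of the list. The list of other inhibitory and costimulatory receptors holds the most calls in ImCD4, 3 higher and 4 lower.

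The median log2 fold change in ImCD4 was 0.04 over the other inhibitory and costimulatory receptors, 0.09 over ligands and partners, -0.05 over other TNF receptors, 0.02 over TRAF and NF-κB genes, 0.05 over CD28 and PD-1 signalling and -0.12 over the regulatory T cell markers, and 0.02 over all tested genes. In ImCD8 the same medians were -0.12, 0.05, 0.04, 0.05, -0.05 and -0.17, and 0.01 over all tested genes.

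Some genes on the lists for other cells also moved with genotype in ImCD4. The gamma-delta list (6 genes, Trdv4 without a count) summed to 206 to 310.2 CPM in dKO and 35.8 to 44.2 CPM in control, nearly all of it Sox13 at 218 ± 58.7 CPM in dKO and 20.3 ± 1.39 CPM in control. Trdc, the constant region of the delta chain, was at 11.3 ± 1.17 and 9.69 ± 2.17 CPM in the same order (adjusted p = 0.461). Tcrg-C1, a constant region gene of the gamma chain, rose to 4.01 ± 2.64 CPM in dKO, against 0.410 ± 0.0813 CPM in control, that is 120 counts over 3 libraries against 11 (3.24 ± 0.58, adjusted p = 0.00203), and this call held in all 20 alternatives in which it was tested. With Sox13 (3.42 ± 0.17, adjusted p = 4.43e-08) 2 of the 4 tested genes of the list passed. The NK and innate-like list (7 genes, Ncr1 without a count) summed to 68.0 to 74.6 CPM in dKO and 33.4 to 39.2 CPM in control, nearly all Il2rb. Il2rb was the only 1 of the 4 tested genes of that list to pass. The rest had few counts in both groups. Over the dKO and control libraries, Eomes had 14 and 15 counts, Klrd1 9 and 3, and Tbx21 8 and 3. Zbtb16 had 3 and 5, and Klrb1c 0 and 1. The myeloid and dendritic list (8 genes, mostly Cst3 and Cd74) summed to 139.7 to 149.8 and 107 to 123 CPM, and the B cell list (8 genes, mostly Ighm, with Cd22 without a count) to 64.1 to 90.5 and 71.5 to 94.7 CPM in the same order. The double-positive thymocyte list summed to 166 to 208 CPM in dKO and 153 to 181 CPM in control, and the thymic epithelial list to 7.27 to 10.6 and 4.75 to 6.48 CPM. Of these 2 lists Dntt (0.79 ± 0.15, adjusted p = 0.00383) and Prss16 (1.84 ± 0.54, adjusted p = 0.0348, 66 counts over dKO and 16 over control libraries) rose, and the Prss16 call was lost in 5 of 20 alternatives (adjusted p up to 0.235, without replicate 3 of every group). The part of these markers in the Ctla4 and Icos results was not tested.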

How the data were processed

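RNA was measured in 12 libraries of sorted thymocytes. Per the labels' protocols, the RNeasy Plus Micro kit was used for RNA and the SMARTer low-input kit for libraries. The tools were cutadapt 1.18, STAR 2.6.1 and HTSeq and the genome mm10, per the submitters' processing notes. Annotation and strand setting: not given in the sources used here. The authors deposited raw counts, whole numbers for each gene symbol that were not normalized. The 5 summary rows (reads outside genes were 10.49% to 16.4%, ambiguous 5.37% to 5.82%, multiply aligned 3.87% to 5.39%) stayed out of library sizes and tests.

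Groups follow titles. Counts were filtered by filterByExpr (minimum 10, total 15), scaled by TMM and fitted with edgeR 4.0.16 in R 4.3.3, a robust quasi-likelihood model of 4 group means over 12 libraries with 8 residual degrees of freedom. Tests were two-sided, adjusted by Benjamini-Hochberg over 13383 genes, with 0.05 as threshold. An exact permutation test of 3 against 3 cannot go below 0.1. Levels are CPM, mean ± SD, n = 3. The procedure was tested on data simulated from the gene means and spreads of the fit, each library drawn independently. Shifts shared by libraries, such as that of replicate 3, were not simulated, so this test does not cover them. Within a group, libraries differed by more than counting noise (chi-square per degree of freedom at least 3.53). Exon lengths, positions and IDs were matched by symbol to GENCODE M21 (GRCm38), which gave lengths for 10790 of the tested genes, 80.6%. Levels per length are CPM per kb in place of the planned TPM, because Gm23935, of 57 exon bases, took 29.1% to 46.6% of TPM. Promoters are from RefSeq.

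The members and lists were chosen with earlier results of these data known. Named genes are the members, the targeted and lineage check genes, up to 4 called genes per list and population with the smallest adjusted p, the 2 most abundant genes of each list of other cell types, and the 3 genes most like a called member (mean of at least 5 CPM). Foxp3, Tcrg-C1, Cd79b, Rag1, Prss16, Cd274, Tnfrsf14, Ltb, Pdk1 and genes with few or no counts were named after their values were seen. Not every gene taken by this rule is reported here. The alternatives tried were library size only, RLE size factors, DESeq2 1.42.0, limma-voom (limma 3.58.1) with quality weights, no filter, over 5 CPM in 3 libraries, only the 6 libraries compared, each library left out, and replicate 3 of every group left out. A fit with a term for the libraries apart on the third principal component was added after the data were seen.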

Additional observations from a re-analysis of the deposited data

Results flagged for a closer look

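The effect of the deletion on Cd40lg differed between the populations by a test of the difference itself. The ImCD8 effect minus the ImCD4 effect was 1.13 on the log2 scale (SE 0.22, edgeR adjusted p = 0.0265), with 3 of 3 dKO ImCD8 libraries above all control ImCD8 libraries and overlapping libraries in ImCD4. Over 20 alternatives the difference was 1.01 to 1.36 and passed in 11, with adjusted p from 1.46e-07 to 0.120. In ImCD8 the gene rests on 206 counts over the dKO and 94 over the control libraries.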

How the results depend on the processing

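Icos in both populations and Ctla4 in ImCD4 kept direction and call in all 21 alternatives, and all 10 genes stayed called between the lineages in controls. Of 1040 gene-by-setting values for the members, 991 kept direction and side of the threshold, 14 lost and 12 gained the call, and 23 changed sign. The number of members called in ImCD4 (2) became 4 with only the 6 libraries compared and 4 with limma-voom, and 2 to 3 when 1 library was left out. In ImCD8 (2) it became 1 with only the 6 libraries compared and stayed at 2 when 1 library was left out. For the difference of the effects (1) it became 0 with limma-voom and 2 without replicate 3 of every group, and 0 to 1 when 1 library was left out. Between lineages it was 10 in controls and 7 to 8 in dKO (8) when 1 library was left out. The cause of these changes was not tested.

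Signs changed only for values that did not pass. Cd28 in ImCD4 became -0.011 with library size only and -0.013 with the filter of over 5 CPM, and without replicate 3 of every group Btla in ImCD8 became -0.082 and Tnfrsf9 in ImCD8 0.017. When 1 library was left out, log2 fold changes ran from -0.034 to 0.053 for Cd28 in ImCD4, from -0.0083 to 0.37 for Cd28, from -0.013 to 0.52 for Pdcd1 and from -0.29 to 0.15 for Tnfrsf9 in ImCD8, and from -0.077 to 0.37 for Tnfrsf9 between lineages in dKO. Differences of the effects ran from -0.035 to 0.081 for Icos, -0.11 to 0.071 for Tnfrsf18, -0.22 to 0.33 for Pdcd1, -0.039 to 0.36 for Cd28 and -0.0012 to 0.12 for Cd27.

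Calls over all tested genes were 1797 in ImCD4, with 1055 without dKO ImCD4 replicate 2, 1086 without control ImCD4 replicate 1 and 2441 with limma-voom. They were 822 in ImCD8, with 473 without control ImCD8 replicate 1 and 1280 without a filter, and 58 for the difference, with 233 without a filter, 140 with DESeq2, 106 without replicate 3 of every group and 39 without dKO ImCD4 replicate 2. With library size only, 757 genes were higher and 853 lower in ImCD4, against 972 and 825 with TMM. Over the alternatives, called genes in ImCD4 numbered 5 to 9 (7) among other receptors, 2 to 4 (2) among ligands, 1 to 3 (1) among other TNF receptors, 2 to 6 (4) among TRAF and NF-κB genes, 1 to 4 (3) in CD28 and PD-1 signalling and 4 to 6 (5) among regulatory T cell markers. In ImCD8 they numbered 0 to 5 (1), 0 to 2 (0), 0 to 0 (0), 2 to 3 (2), 0 to 4 (1) and 1 to 2 (1) in the same order. Ctla4, and Cd40lg and Tnfrsf4 in ImCD8, rest on at most 113 counts a library. The main test used no pairing, because the labels number the libraries 1 to 12 in 1 run and name no pairs. Replicate numbers here are the order within a group, and the labels do not say whether they pair libraries. A fit with 1 term for the 4 libraries apart on the third principal component was added after the data were seen: 3 members were called in ImCD4 (Tnfrsf18 gained, adjusted p = 0.0380), and the calls in ImCD8 (2), for the difference (1) and between lineages (10 and 8) were as many as before, while over all genes 2679 passed in ImCD4, 1420 in ImCD8 and 200 for the difference.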
